A study of Mus musculus with 16 samples.

Results

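Aortic smooth muscle cells grown in plain medium were compared between mice that lacked Arg1 in the red blood cell lineage and their wild-type littermates. The comparison takes 8 of the 16 libraries of the study, the 4 KO and the 4 WT libraries whose label gives DMEM as the medium, and it asks whether the genotype of the donor mouse left a trace in the RNA of the cultured cells. The other 8 libraries are of both genotypes after 10 days in DIAM, a DMEM to which ascorbic acid (50 µg/mL), insulin (1 µM) and dexamethasone (0.1 µM) were added. KO mice are labelled RBC.ARG1-KO and carried the ARG1 flox/flox allele with a Cre transgene of the erythropoietin receptor gene (ErCre tg), so that recombination is directed to cells of the red blood cell lineage. WT mice are the littermates labelled RBC.ARG1-WT, for which no source used here says whether they carried the floxed allele or the Cre. All mice are labelled strain C57BL/6J, male and batch 1, with no age stated in those sources. The cells were primary cultures from collagenase-digested aortas, grown on gelatin in DMEM with 10% fetal bovine serum, penicillin and streptomycin. Nothing in the labels says how many mice went into a culture, or whether the DMEM and DIAM cultures of 1 number came from the same mouse.

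Arginase 1 splits arginine into ornithine and urea. The reaction competes with the nitric oxide synthases for arginine, and ornithine feeds the synthesis of polyamines and proline. Red blood cells carry arginase and can change the arginine available to the vessel wall, while smooth muscle cells of the aorta make the contractile and matrix proteins of its middle layer and can take up lipid and turn into foam cells.

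In DMEM no gene differed between genotypes by edgeR's quasi-likelihood test at an adjusted p under 0.05, which is 0 of 14217 genes tested (0.0%). At an unadjusted p under 0.05 there were 267 genes higher in KO (1.88%) and 171 lower (1.2%), together 438 (3.08%). The 4 KO libraries lay wholly above the 4 WT libraries for 110 genes (0.774%) and wholly below them for 117 (0.823%), together 227 (1.6%). With no genotype difference, about 5% of genes would be at an unadjusted p under 0.05. A random split of 8 libraries into 4 and 4 separates them wholly with a probability of 0.0286. Both shares seen were below these, so a lack of overlap alone does not set a gene apart. DESeq2 on the same counts called 1 gene, Zdhhc18, with 482 genes at an unadjusted p under 0.05. The authors' deposited table called 2 of 20571 genes with an adjusted p-value (0.00972%), Zdhhc18 and Lat2, both higher in KO. The replicates are called biological in the series' design text, but no label names the mice, so the p-values measure the spread between these libraries.

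Most differences had narrow limits on their size, from 1 model that shares its spread over all 16 libraries. The 95% limits of the KO over WT difference, from limma voom, lay within 1 on the log2 scale for 13155 genes (92.5%) and within 1.5-fold for 11383 genes (80.1%). The median distance from a gene's estimate to its limit was 0.21 on the log2 scale, and 0.16 among the 9204 genes at 10 CPM or more, where CPM is the estimated count relative to the library total after TMM scaling. The middle 50% of the estimated log2 differences ran from -0.06 to 0.06 around a median of -0.01, against -0.13 to 0.12 for the same genotypes in DIAM. An absolute log2 difference above 1 was estimated for 71 genes in DMEM and 320 in DIAM.

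**Figure D1:**
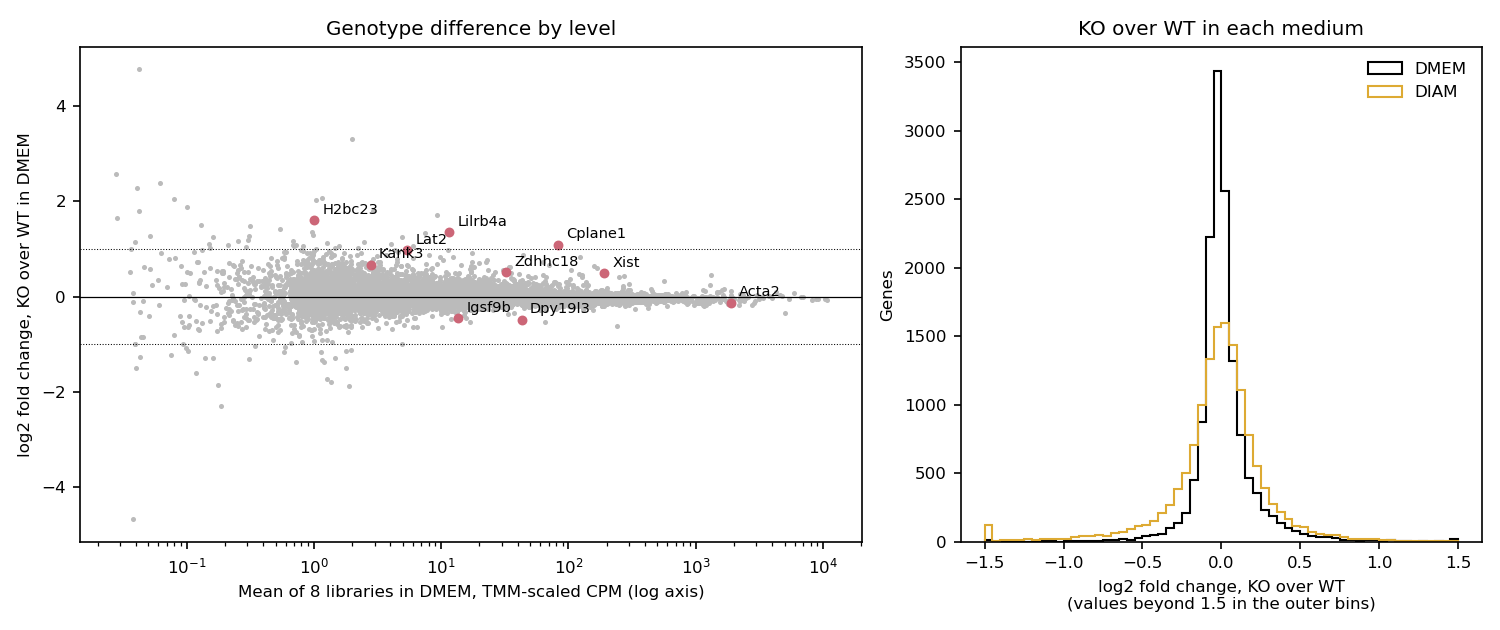
Left, log2 fold change of KO over WT in DMEM (vertical axis) against the mean of the 8 libraries in TMM-scaled CPM (horizontal log axis), 1 point a gene, with named genes in red and dotted lines at 1 and -1. Right, number of genes by log2 fold change in DMEM (black) and in DIAM (yellow): the middle 50% of values spans -0.06 to 0.06 in DMEM and -0.13 to 0.12 in DIAM.

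Before the single genes, some libraries stood apart or went against a label. The smooth muscle markers were present: Acta2, the smooth muscle actin, had 2062, 1923, 2219 and 1637 CPM in WT libraries 1 to 4 and 2207, 1400, 2320 and 1268 CPM in KO libraries 1 to 4. All 8 libraries are labelled male, yet Xist, the RNA made from the inactive X chromosome of female cells, had 135, 187, 109 and 204 CPM in WT and 126, 326, 204 and 239 CPM in KO. Xist was thus present in every library, and the genotypes overlapped, with a log2 difference of 0.50 (SE 0.24, edgeR, adjusted p = 1.0) that was 0.26 without KO library 2. The Y-linked genes Ddx3y, Eif2s3y, Kdm5d, Uty and Usp9y have no row in the table used here. That table does hold 4 genes matched to chromosome Y, and genes at a few counts. Why the named genes have no row was not tested, and the sex label was not settled. KO libraries 2 and 4 lay at one end of the first principal component of the 8 libraries (27.5% of the variance), at 23.5 and 13.3, and the other 6 libraries lay between -14.7 and 4.58.

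Markers of other cell types varied between libraries of the same genotype by more than the genotype means differed. The summed level of 19 macrophage and leukocyte markers was 2206, 1619, 1046 and 2222 CPM in WT and 2025, 2993, 1370 and 2122 CPM in KO, so KO library 2 was the highest and WT library 3 the lowest. Among those markers Lyz2, Adgre1 and Csf1r were present in all 8 libraries, and the lymphocyte markers Cd3e and Cd79a have no row in the table used here. The summed level of 12 Schwann and glial markers was highest in KO library 2 at 140.3 CPM, against 35.5 to 54.4 CPM in the other KO libraries and 36.6 to 99.4 CPM in WT.

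For 10 mesothelial markers, genes of the lining of body cavities, the sum was 398 CPM in KO library 1 and 408 CPM in KO library 4, against 104 and 76.7 CPM in KO libraries 2 and 3 and 104 to 210 CPM in WT. The KO libraries of the same numbers were also the high ones in DIAM, at 711 and 821 CPM against 268 and 250 CPM for numbers 2 and 3. The summed level of 12 fibroblast markers was even, from 2958 to 3184 CPM in WT and from 2856 to 3212 CPM in KO. The sum of 13 endothelial markers ran from 60.5 to 85.7 CPM in WT and from 65.0 to 90.8 CPM in KO. In whole cultures, fewer cells of a type and less RNA per cell cannot be told apart.

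**Figure D2:**
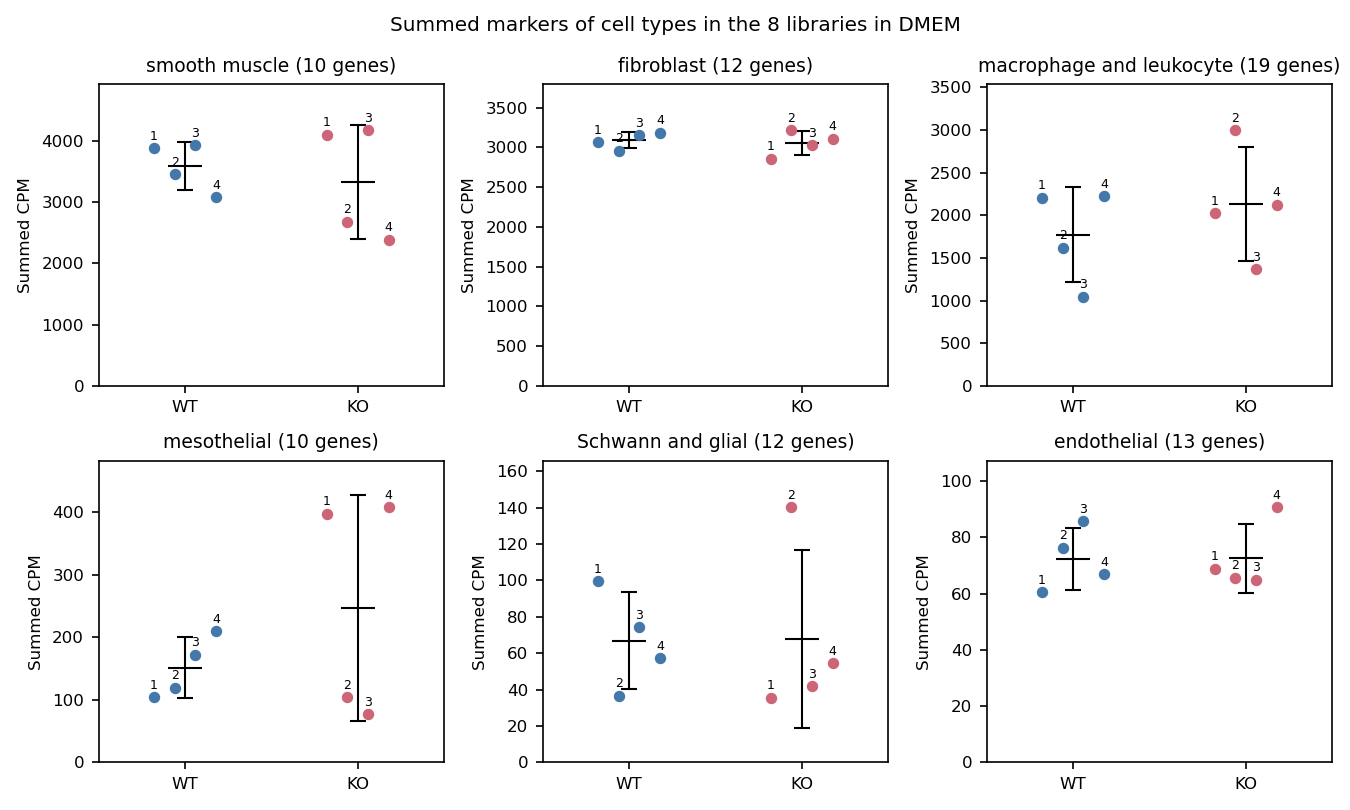
Summed TMM-scaled CPM of the markers of 6 cell types (vertical axes, from 0) in the 4 WT (blue) and 4 KO (red) libraries in DMEM, numbered by library, with the mean and SD of each genotype in black. The genotypes overlap in all 6 panels; KO library 2 is highest for macrophage and Schwann markers, and KO libraries 1 and 4 for mesothelial markers.

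Arg1 itself was at a few counts. WT libraries 1 to 4 had 3, 4, 3 and 3 counts of Arg1 (ENSMUSG00000019987) and KO libraries 1 to 4 had 12, 22, 2 and 49. KO libraries 1, 2 and 4 were thus above all WT libraries and KO library 3 was below them. The difference had p = 0.143 in a two-sided exact permutation test of unscaled CPM, whose smallest possible value with 4 against 4 is 0.0286. Without KO library 3, the only KO library not above WT, the groups were bound to separate. The exact p of 0.0286 was then the smallest that test could give, so it adds no support. The authors' deposited table gives Arg1 a log2 fold change of 2.77 and an adjusted p of 0.778. The deletion was directed to another lineage, so these counts do not check the genotype labels. KO library 3 was also the lowest KO library in summed markers of macrophages, cells that can make Arg1, at 1370 CPM, while KO library 4, the highest in Arg1, had 2122 CPM of them and WT library 4 had 2222 CPM. The part of these markers in the Arg1 counts was not tested.

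Arg2, the mitochondrial arginase, had 6, 0, 5 and 8 counts in WT and 5, 6, 4 and 6 counts in KO (exact permutation p = 0.686). Epor, the gene whose Cre transgene made the deletion, had 11, 27, 10 and 13 counts in WT and 4, 10, 9 and 17 counts in KO (exact permutation p = 0.486). Both groups overlapped for either gene. Of 13 defining genes of red blood cells, the globin genes Hba-a1, Hba-a2, Hbb-bs and Hbb-bt and 5 others have no row in the table used here, and Alas2, Epb42 and Klf1 had at most 8, 4 and 10 counts in a library. Tal1, which endothelial cells also make, had 20 to 36 counts.

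The genes that neighbour Arg1 and Epor were looked at since the floxed allele is of the one gene and the Cre is of the other. Of the 20 nearest tested genes around Arg1 on chromosome 10, 0 were called, 1 was at an unadjusted p under 0.05 and 1 did not overlap (Gm4739, lower in KO), with a median log2 difference of -0.04. Of the 20 around Epor on chromosome 9, 0 were called, 1 was at an unadjusted p under 0.05 and 1 did not overlap (Spc24, lower in KO), with a median of -0.04. Over all genes tested 3.08% were at an unadjusted p under 0.05 and 1.6% did not overlap, so 1 of 20 is too few to set apart from these shares. The order of genes was taken from a RefSeq list of genes. No annotation of the build the authors used was at hand, so no positions are given.

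Zdhhc18 (ENSMUSG00000037553), a palmitoyltransferase that attaches palmitate to cysteines of membrane proteins such as Ras, had the smallest p of all genes. Its level was 29.4, 26.3, 25.8 and 25.4 CPM in WT libraries 1 to 4 and 39.7, 39.1, 38.1 and 35.8 CPM in KO libraries 1 to 4. The lowest KO library lay above the highest WT library, and the spread within each genotype was small (26.7 ± 1.84 CPM in WT and 38.2 ± 1.73 CPM in KO, SD, n = 4). The log2 difference was 0.51 (SE 0.09, 95% limits 0.33 to 0.70), with an adjusted p of 0.46 by edgeR. The adjusted p was 0.00172 by DESeq2 and 3.51e-07 in the authors' deposited table, so the call depended on the tool. With 1 library left out at a time the log2 difference stayed between 0.49 and 0.57. All other genes named for DMEM that passed the filter had an adjusted p of 1.0 by edgeR with no library left out.

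In DIAM the KO libraries were not higher in Zdhhc18: the log2 difference was -0.16 (SE 0.09, adjusted p = 0.286, edgeR). The interaction of genotype and medium was -0.67 on the log2 scale (adjusted p = 0.171, edgeR), and its adjusted p was 0.00308 in the authors' deposited table. The other palmitoyltransferases, and the thioesterases that reverse the reaction, had estimates on both sides of 0. Of 28 tested genes of that list, 0 were called, 1 did not overlap on the higher side (Zdhhc18, against 0.774% of all genes tested) and 2 on the lower side (Zdhhc21 and Zdhhc6, against 0.823%), and the median log2 difference was 0.00, against -0.01 over all genes tested. Zdhhc21 had 31.1, 30.02, 27.2 and 27.8 CPM in WT and 25.7, 22.96, 24.3 and 25.3 CPM in KO, so the groups did not overlap, with a log2 difference of -0.24 (SE 0.06, adjusted p = 1.0, edgeR). Zdhhc5, another enzyme of the family, gave -0.05 on the log2 scale with limits from -0.15 to 0.06.

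Lat2 (ENSMUSG00000040751), a membrane adaptor of immune receptors in mast cells, B cells and macrophages, was the other gene called in the authors' deposited table (log2 fold change 0.97, adjusted p = 0.0122). WT libraries had 4.31, 3.28, 2.58 and 4.53 CPM and KO libraries had 6.94, 8.95, 6.54 and 6.39 CPM. All KO libraries lay above all WT libraries, and the log2 difference was 0.97 (SE 0.23, 95% limits 0.63 to 1.37, adjusted p = 1.0, edgeR). In DIAM the log2 difference of Lat2 was -0.73 (SE 0.27, adjusted p = 0.0951, edgeR). The highest KO library for Lat2, number 2, was also the highest in summed macrophage markers, and the lowest WT library, number 3, was the lowest in them. Over 24 other settings, the macrophage marker sum as a covariate (0.89) among them, the log2 difference of Lat2 was between 0.82 and 1.09.

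The rule that named Lilrb4a and Coro7, and below Chaf1a, Setdb2 and Nnt, required groups without overlap, so that is no result for them. Lilrb4a, an inhibitory receptor of myeloid cells, had 7.41, 6.87, 2.98 and 8.51 CPM in WT and 10.2, 30.05, 12.04 and 13.9 CPM in KO. The groups did not overlap, KO library 2 was far above the rest, and the log2 difference was 1.36 (SE 0.46, adjusted p = 1.0, edgeR). With 1 library left out it was between 0.91 and 1.54, and with Xist as a covariate it was 0.73. Coro7, a coronin that acts at the Golgi, had 13.0, 13.8, 11.9 and 17.6 CPM in WT and 19.8, 21.5, 21.6 and 18.1 CPM in KO, with no overlap and a log2 difference of 0.53 (SE 0.19). KO library 2, the highest for Lilrb4a, was also the highest in summed macrophage markers (2993 CPM). Coro7 was nearly equal in that library (21.54 CPM) and in KO library 3 (21.61 CPM), the lowest KO library in these markers (1370 CPM). Among WT libraries, Coro7 was highest in library 4 and lowest in library 3. The macrophage markers had the same order at the ends, with 2222 CPM in WT library 4 and 1046 CPM in WT library 3. The part of these markers in either difference was not tested.

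Ift172, a subunit of the transport machinery of cilia, had 21.9, 22.9, 19.9 and 20.9 CPM in WT and 32.4, 32.9, 25.1 and 26.9 CPM in KO. The KO libraries all lay above the WT libraries, and the log2 difference was 0.45 (SE 0.11, adjusted p = 1.0, edgeR). Kank3, a cytoskeletal adaptor, had 2.48, 1.86, 2.48 and 1.81 CPM in WT and 2.70, 3.90, 3.30 and 3.88 CPM in KO, also with no overlap (log2 difference 0.67, SE 0.16). Nfkbiz, which encodes the nuclear regulator IκBζ of NF-κB, had 13.8, 13.4, 14.7 and 17.1 CPM in WT and 17.5, 18.9, 16.8 and 21.4 CPM in KO, where WT library 4 lay above KO library 3 (log2 difference 0.34, SE 0.09).

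H2bc23, a histone H2B gene, had 0.602, 0.491, 0.466 and 0.421 CPM in WT and 0.393, 1.99, 1.68 and 1.99 CPM in KO. KO library 1 was below all WT libraries and the other KO libraries were above them, so the groups overlapped (log2 difference 1.61, SE 0.38, adjusted p = 1.0, edgeR). Without KO library 1 the test called 2 genes: H2bc23 (log2 difference 1.93, adjusted p = 0.00947) and Fam193b (adjusted p = 0.028). Fam193b, named after its values were seen, had 13.8, 13.2, 11.5 and 15.4 CPM in WT and 11.99, 22.75, 21.95 and 23.49 CPM in KO, again with KO library 1 at the WT level. For both genes KO library 1 was the only KO library not above all WT libraries. Without it the groups were bound to separate, so these 2 calls add no support. Histone genes have near-identical copies, so the estimated counts of H2bc23 are uncertain.

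Among genes with a lower estimate in KO, predicted genes left aside, Igsf9b, an adhesion protein of the immunoglobulin family, had the smallest p. It had 16.7, 15.9, 15.96 and 14.55 CPM in WT and 12.6, 12.4, 10.8 and 10.2 CPM in KO. No library overlapped, and the log2 difference was -0.46 (SE 0.10, 95% limits -0.67 to -0.26, adjusted p = 1.0, edgeR); the authors' deposited table gives it an adjusted p of 0.0554. In DIAM Igsf9b differed in the same direction, by -0.31 on the log2 scale (adjusted p = 0.068, edgeR).

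Dpy19l3, a C-mannosyltransferase of the endoplasmic reticulum, had 53.3, 44.2, 57.5 and 44.7 CPM in WT and 39.2, 38.6, 33.4 and 32.0 CPM in KO. Again no library overlapped, with a log2 difference of -0.48 (SE 0.13). Peli2, a ubiquitin ligase of Toll-like receptor signalling, had 22.5, 20.9, 25.99 and 25.3 CPM in WT and 18.4, 19.1, 20.6 and 20.5 CPM in KO (log2 difference -0.27, SE 0.07). Chaf1a, a subunit of the complex that places histones behind the replication fork, had 13.4 to 15.2 CPM in WT and 10.7 to 12.1 CPM in KO (log2 difference -0.32, SE 0.12). Setdb2, a histone methyltransferase, had 6.90 to 9.01 CPM in WT and 5.71 to 6.73 CPM in KO (log2 difference -0.32, SE 0.09). Each of these had an adjusted p of 1.0 by edgeR.

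Nnt, the mitochondrial transhydrogenase that is disrupted in the C57BL/6J strain, is listed in 2 rows with the same symbol. In the first row (ENSMUSG00000025453) WT had 13.96, 12.6, 15.8 and 13.7 CPM and KO had 11.9, 12.4, 10.9 and 5.12 CPM, with no overlap (log2 difference -0.48, SE 0.31, edgeR, and -0.255 without KO library 4). In the second row (ENSMUSG00000116207) WT had 14.2, 17.3, 14.4 and 14.1 CPM and KO had 16.6, 13.8, 18.2 and 21.8 CPM (log2 difference 0.23, SE 0.62). KO library 4 was the lowest in the one row and the highest in the other, so reads may be divided between the rows and Nnt is uncertain.

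**Figure D3:**
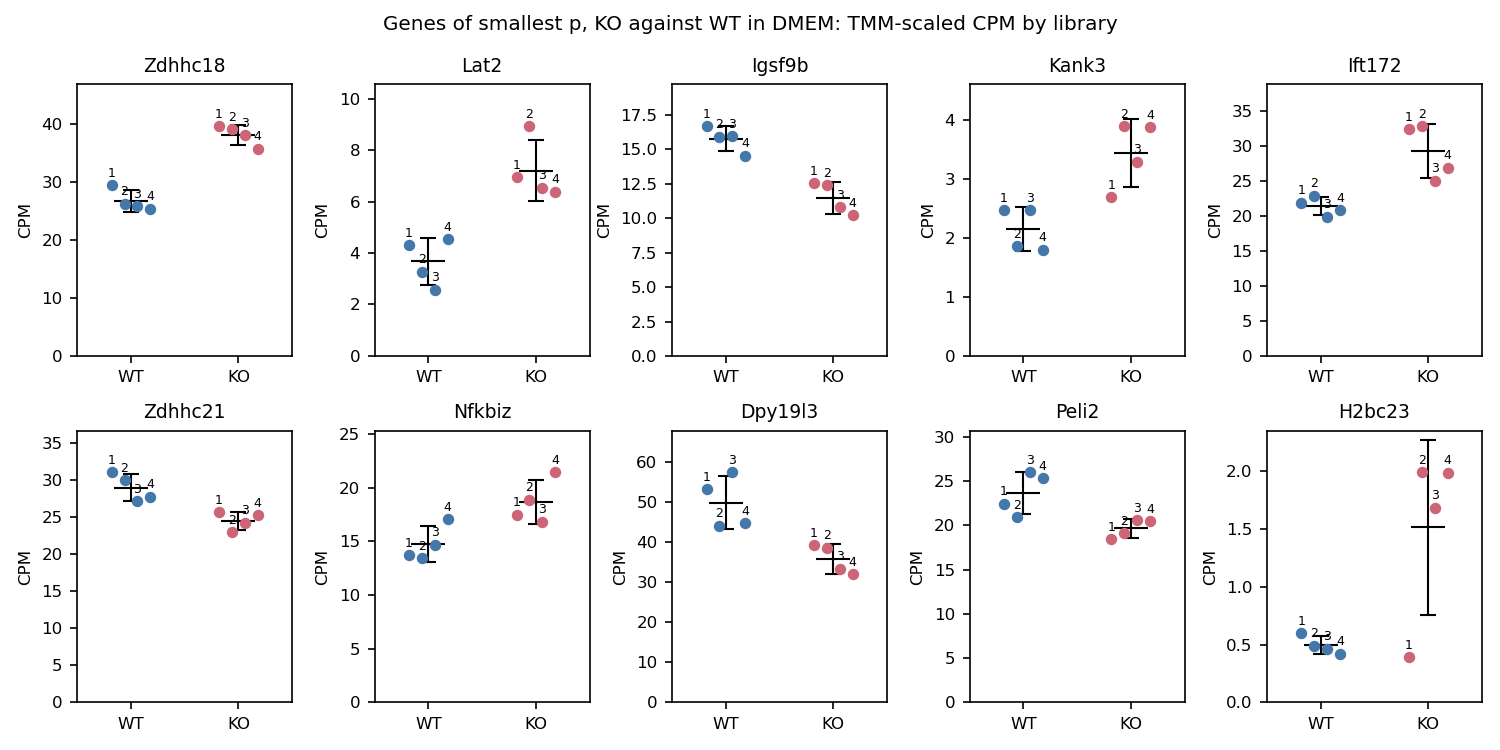
TMM-scaled CPM (vertical axes, from 0) of the 10 genes of smallest p among named genes at a mean of 1 CPM or more, in the 4 WT (blue) and 4 KO (red) libraries in DMEM, numbered by library, with the mean and SD of each genotype in black. The genotypes do not overlap in 8 of the panels; they overlap for Nfkbiz and for H2bc23, where KO library 1 is at 0.393 CPM.

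None of the genes that handle arginine passed the test. Of 22 tested genes of arginine, citrulline and nitric oxide metabolism 0 were called and 0 were at an unadjusted p under 0.05, and 17 had a log2 difference below 0, with a median of -0.05 against -0.01 over all genes, and between -0.06 and -0.03 when 1 library was left out. Oat, which turns ornithine toward proline, had a log2 difference of -0.01 with limits from -0.09 to 0.08. Ass1, which makes argininosuccinate from citrulline, had 132.9 ± 17.96 CPM in WT (SD, n = 4) and a log2 difference of -0.07 with limits from -0.28 to 0.16. The arginine transporters Slc7a1 and Slc7a2 gave -0.11 (limits -0.28 to 0.06) and -0.07 (limits -0.27 to 0.14). Nos3, the endothelial nitric oxide synthase, was at 3.06 ± 0.44 CPM in WT, and Nos2, the inducible one, had 1 to 8 counts in a library.

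Of 17 tested polyamine genes 0 were called and 13 were below 0, with a median of -0.04 that was 0.008 without WT library 1. Odc1, which makes putrescine from ornithine, had 221, 188, 205 and 198 CPM in WT and 218, 173, 202 and 181 CPM in KO, with overlap and a log2 difference of -0.07 (limits -0.23 to 0.08). Srm, the spermidine synthase, had the smallest p of the list, with a log2 difference of -0.12 (SE 0.05, adjusted p = 1.0, edgeR) and overlapping groups.

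No gene of the contractile apparatus passed the test either: 0 of 22 were called, 1 was at an unadjusted p under 0.05 on the higher side (Des), and 20 of 22 were below 0, with a median of -0.07. Without KO library 4 that median was 0.02, and without KO library 1 it was -0.15. The transcripts were low together in KO libraries 2 and 4, where the summed level was 8526 and 8228 CPM, against 11380 and 11520 CPM in KO libraries 1 and 3 and 9666 to 11270 CPM in WT. Tagln, the actin-binding protein SM22, followed this order, with 1234, 843, 1197 and 711 CPM in KO and 893 to 1293 CPM in WT (log2 difference -0.10, limits -0.56 to 0.32). Des, the intermediate filament desmin, went the other way, with 11.9, 7.31, 13.1 and 15.7 CPM in WT and 41.0, 7.24, 20.4 and 22.1 CPM in KO (log2 difference 0.91, SE 0.42, adjusted p = 1.0, edgeR). Without KO library 1 the difference of Des was 0.47.

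Among 32 collagen and matrix genes 0 were called, with a median of -0.05 that was 0.003 without WT library 3 and -0.10 without KO library 2. Fn1, fibronectin, gave -0.07 (limits -0.25 to 0.10), Col1a1 gave -0.05 (limits -0.51 to 0.38) and Eln, elastin, gave -0.17 (limits -0.74 to 0.30). Fbn1, the microfibril protein fibrillin, had the smallest p, with a log2 difference of -0.20 (SE 0.09, adjusted p = 1.0, edgeR). Of 23 TGF-beta and BMP genes 0 were called (median -0.05, and -0.10 without KO library 1), and of 23 tested proteases and inhibitors of the matrix 0 were called (median -0.03, and 0.001 without WT library 3).

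Lipid genes had small differences, most of one sign, and none passed the test. Of 24 genes of cholesterol synthesis and uptake 0 were called and 23 had a log2 difference below 0, with a median of -0.12 that was -0.05 without KO library 2. Hmgcs1, the HMG-CoA synthase of sterol synthesis, had 207, 245, 244 and 221 CPM in WT and 194, 181, 240 and 219 CPM in KO (log2 difference -0.14, limits -0.30 to 0.02). The groups overlapped, with KO libraries 1 and 2 below all WT libraries and KO libraries 3 and 4 within their range. Nsdhl, a late step, had the smallest p of the list (log2 difference -0.17, SE 0.06, adjusted p = 1.0, edgeR). Genes of 1 list are not independent of each other, and 7719 of all 14217 genes tested were also below 0, so the count of 23 of 24 has no p.

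Of 26 genes of fatty acid synthesis and lipid storage 0 were called and 22 were below 0 (median -0.08), and the median was -0.025 without KO library 2 and -0.026 with the macrophage marker sum as a covariate. In that list 1 gene did not overlap on the lower side (Acadm, against 0.823% of all genes tested). Scd2, a fatty acid desaturase, had 1146, 1353, 1335 and 1267 CPM in WT and 1058, 1099, 1233 and 1131 CPM in KO (log2 difference -0.17, SE 0.08, adjusted p = 1.0, edgeR), with overlap through WT library 1 and KO library 3. The list of cholesterol efflux and foam cells had 16 of 20 genes above 0, a median of 0.06 that was 0.03 without WT library 3 and 0.15 without WT library 4, and 0 calls. Apoe, the apolipoprotein that takes up cholesterol, had 543, 461, 366 and 610 CPM in WT and 516, 892, 418 and 674 CPM in KO (log2 difference 0.34, SE 0.20), and the difference was 0.115 without KO library 2 and 0.22 without WT library 3. Apoe was highest in KO library 2 and lowest in WT library 3, the same libraries as for the macrophage markers, and Cd68 belongs to both lists.

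Interferon-stimulated genes were above 0 in 30 of 31 tested genes, with 0 called and a median of 0.10 that was 0.05 without KO library 2 and 0.25 without WT library 4. With the macrophage marker sum as a covariate the median was 0.034, and with Xist as one it was 0.033. Ifit3 had 63.5, 59.9, 60.6 and 82.2 CPM in WT and 79.6, 75.04, 68.2 and 53.5 CPM in KO, so the highest library was a WT and the lowest a KO library (log2 difference 0.05, limits -0.29 to 0.39). The 17 tested macrophage and leukocyte markers were all above 0, with 0 called, a median of 0.315 that was 0.08 without KO library 2, and log2 differences from 0.14 to 0.79. Fcgr1, a receptor for antibodies on macrophages, was the one of smallest p. It had 3.22, 1.68, 1.19 and 2.52 CPM in WT and 2.85, 6.59, 2.05 and 3.38 CPM in KO, with overlap and KO library 2 the highest, and a log2 difference of 0.79 (SE 0.44) that was 0.36 without that library.

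Of 32 cell cycle genes 0 were called and 28 were below 0, with a median of -0.09 that stayed between -0.10 and -0.06 when 1 library was left out. In that list 1 gene did not overlap on the lower side (Mcm2, against 0.823% of all genes tested). Mki67, a marker of dividing cells, had 17.6, 24.2, 19.96 and 22.4 CPM in WT and 16.4, 23.5, 21.6 and 20.6 CPM in KO (log2 difference -0.03, limits -0.31 to 0.25). Mcm4, a subunit of the replicative helicase, gave -0.11 (SE 0.05). All 32 genes had limits within 1.5-fold.

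Ank, a membrane protein that exports ATP and pyrophosphate and so holds back calcification, did not overlap. It had 94.4, 96.3, 100.4 and 99.1 CPM in WT and 81.8, 87.0, 89.1 and 84.7 CPM in KO, with a log2 difference of -0.19 (SE 0.07, 95% limits -0.33 to -0.05, adjusted p = 1.0, edgeR). In DIAM Ank was lower in KO by the test (log2 difference -0.33, adjusted p = 0.0156, edgeR), where 704 genes (4.95%) were called lower. That call is from the model over all 16 libraries, and a fit of the 8 DIAM libraries alone called 0 genes. Of 15 tested osteochondrogenic genes 0 were called in DMEM and 2 did not overlap on the lower side (Ank and Runx2, against 0.823% of all genes tested), with a median of -0.12 that became 0.03 without KO library 4. Spp1, osteopontin, ranged from 693 to 1462 CPM in WT and from 650 to 2828 CPM in KO.

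Heme and iron genes (26 tested, median 0.02), erythropoietin signalling (14 tested, median -0.01), oxidative stress defence (22 tested, median -0.02), the unfolded protein and integrated stress responses (21 tested, median -0.01), hypoxia and glycolysis (26 tested, median -0.03) and inflammation (23 tested, median 0.02) had 0 genes called each. In these 6 lists no gene was at an unadjusted p under 0.05, and their medians lay between -0.05 and 0.08 when 1 library was left out. Gapdh, the glycolytic enzyme often used as a reference, gave -0.02 with limits from -0.15 to 0.12. The 13 mitochondrially encoded RNAs had a median of 0.075 and 0 calls.

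**Figure D4:**
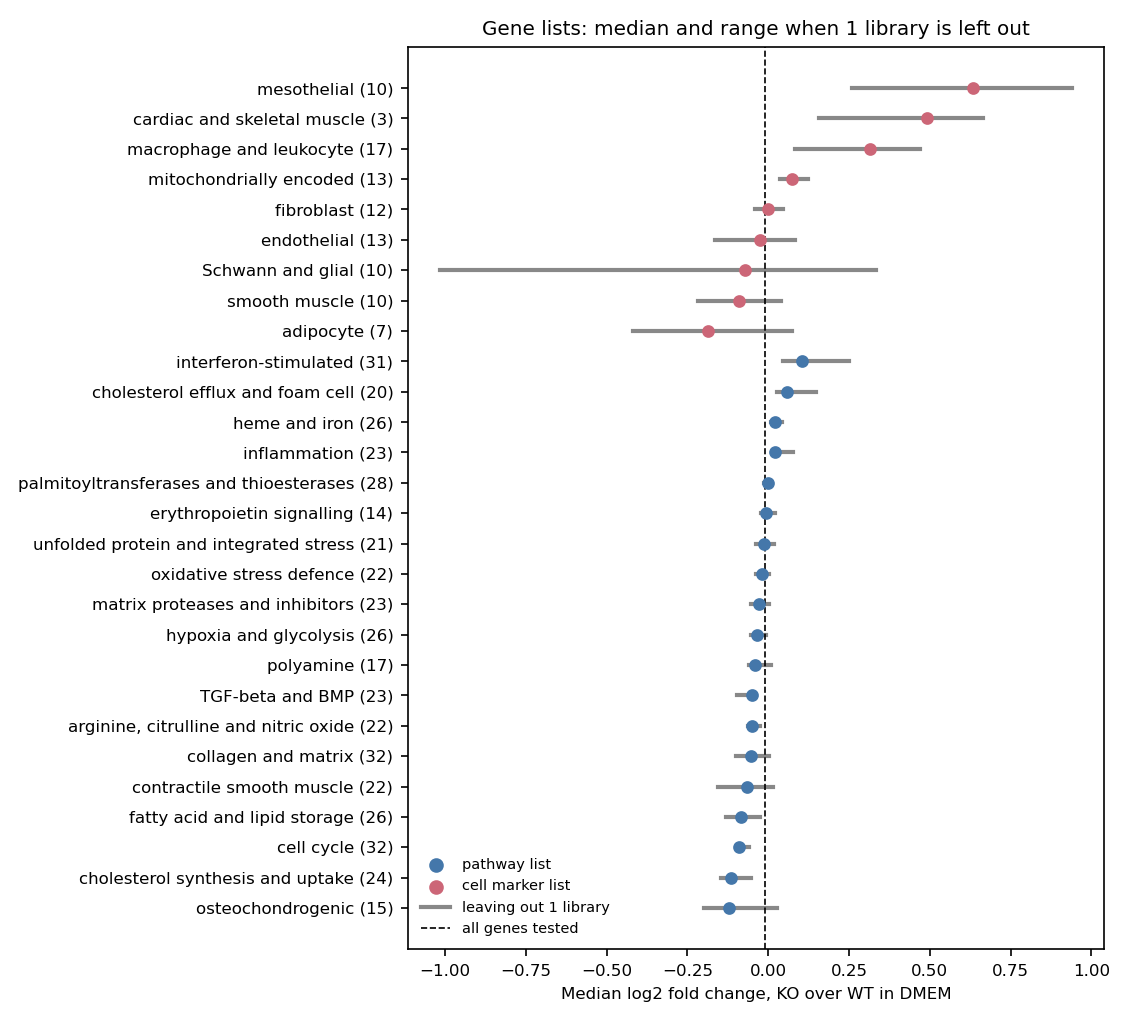
Median log2 fold change of KO over WT in DMEM (horizontal axis) for each gene list with 3 or more tested genes, with the number tested in brackets: pathway lists in blue, cell marker lists in red, grey bars for the lowest and highest median when 1 library is left out, and a dashed line at the median of all genes tested (-0.01). The mesothelial (0.635) and macrophage (0.315) lists lie farthest to the right among lists of 10 genes or more, with wide grey bars.

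The genes that varied most between libraries of 1 genotype included markers of other cell types and genes listed at 0 in some libraries. Upk3b, a mesothelial marker, had 133 and 135 CPM in KO libraries 1 and 4 against 22.6 to 65.5 CPM in the other 6 libraries, and Vat1l had 19.8 and 20.2 CPM in the same libraries against 1.47 to 6.68 CPM in the others. Ngfr, the low-affinity neurotrophin receptor, and Cdh19, a Schwann cell cadherin, were highest in KO library 2 at 67.4 and 12.3 CPM, and next in WT library 1 at 40.4 and 10.7 CPM. Cplane1 ran from 14.6 to 126 CPM in WT and from 16.4 to 273 CPM in KO, and its log2 difference of 1.09 had limits from -1.32 to 3.36. H2ac19 was listed at 0 in WT library 4 and Tmed2b at 0 in KO libraries 3 and 4, with at least 4.22 and 4.79 CPM in the other libraries.

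The genes called between genotypes in DIAM had small differences in DMEM. In DIAM 1191 genes were called by edgeR (8.38%), 487 higher in KO (3.43%) and 704 lower (4.95%), from other libraries than those in DMEM. In DMEM the 487 genes had a median log2 difference of -0.02 and the 704 genes one of -0.04, none of either set was called, and 1 of 487 (0.205%) and 11 of 704 (1.56%) had KO and WT libraries that did not overlap in the direction seen in DIAM. In the opposite direction 8 of the 487 and 3 of the 704 did not overlap, and over all genes tested 0.774% did not overlap on the higher side and 0.823% on the lower side. Kif23, a motor protein of cell division, had the smallest p in DIAM (log2 difference -2.18, adjusted p = 0.00483, edgeR). In DMEM it had 6.39, 5.76, 4.25 and 3.93 CPM in WT and 6.15, 4.78, 4.57 and 4.74 CPM in KO, with overlap and a log2 difference of -0.01 with limits from -0.37 to 0.40. Dbf4, a partner of a replication kinase, gave -0.66 in DIAM and -0.13 in DMEM (limits -0.29 to 0.05), and Acsl4, which activates polyunsaturated fatty acids, gave -0.43 in DIAM and -0.04 in DMEM (limits -0.16 to 0.08). Msra, which repairs oxidized methionine, gave 0.58 in DIAM and -0.03 in DMEM (limits -0.31 to 0.24). Idh3b and Idh3g, subunits of a dehydrogenase of the citric acid cycle, gave 0.40 and 0.45 in DIAM and 0.05 and 0.03 in DMEM. These genes were chosen for their difference in DIAM, so that difference is a description. The DIAM calls are from the model that shares its spread with the DMEM libraries, with 3652 of 14217 genes at an unadjusted p under 0.05. A fit of the 8 DIAM libraries alone called 0 genes, with 3596 of 13554 at an unadjusted p under 0.05. That fit had its own filter and fewer libraries, and which of these changed the calls was not tested. The interaction of genotype and medium was called for 0 of 14217 genes by edgeR (0.0%), with 2255 at an unadjusted p under 0.05, for 225 by DESeq2 and for 234 in the authors' deposited table. Whether the genotype difference of a gene differed between media thus depended on the tool.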

How the data were processed

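Total RNA of 16 libraries was sequenced from unstranded libraries depleted of ribosomal RNA, per the labels' protocols. Per the submitters' processing notes the authors quantified against the mouse build GRCm39 with Salmon 1.9.0, after FastQC, and tested with DESeq2 1.46.0 in R 4.4.2. The deposited table has 20581 genes. Per the labels its library columns hold TPM, but they sum to between 37221192 and 47626331 and were treated as the authors' estimated counts, rounded to whole numbers. It also has log2 fold changes and p-values, as deposited by the authors.

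Genes with at least 1 CPM in at least 4 of 16 libraries were kept (14217 genes, at least 99.83% of each library's counts). The main test was edgeR 4.0.16 (R 4.3.3), quasi-likelihood, two-sided, TMM scaling, robust estimates, 1 model over 4 groups with 12 residual degrees of freedom, Benjamini-Hochberg adjusted over all genes, threshold 0.05. The SE is the absolute log2 fold change over the square root of F. The 95% limits are from limma 3.58.1 (voom), fitted to the same 4 groups. Genes below the filter were compared by exact permutation over 70 splits. DESeq2 1.42.0 was an alternative. The tests were checked on simulated data. Total counts were 38296661 to 47626331 in WT and 37221192 to 40596855 in KO libraries in DMEM; 1 count is thus far below the filter.

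Samples were grouped by the labelled genotype and treatment. WT and KO libraries were not paired by replicate number in the main test. The comparison, the 19 pathway lists, the 11 marker lists and the rule for named genes were chosen with earlier results of these data known. The rule takes Arg1, Arg2, Odc1 and Epor, genes past the threshold by edgeR, DESeq2 or the authors, the 10 of smallest p at 1 CPM or more, the 5 largest rises and falls without overlap at 5 CPM or more, the most abundant gene and the one of smallest p of each list, the Xist and Y-linked genes, the 6 of largest spread in each genotype, and the 5 of smallest p in each direction in DIAM. Predicted genes were left out of most of these steps. Other list members were named to show their list, after their values were seen. Not every gene the rule takes is described, and some are not reported here.

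Alternatives were other scalings, filters, tools, covariates, only the 8 libraries of a medium, a replicate block, and leaving out each library. Xist and the contractile sum as covariates, and other scales for Arg1, were added after the data were seen.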

Additional observations from a re-analysis of the deposited data

Results flagged for a closer look

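Within groups of 4 libraries, the highest or lowest library stood apart from the other 3 by more than Dixon's 95% critical value in 9 of 200 groups looked at. Chance flags about 1 in 20 groups. In WT, Oas2 was 1.81 CPM in library 4 against 0.952 to 1.03 in the others. Fabp4 was 64.8 CPM in WT library 1 against 75.3 to 77.4, and Tnnt2 was 1.458 CPM in the same library against 2.82 to 3.05. In KO library 2, Oas2 was 3.21 CPM against 1.25 to 1.47, Ngfr was 67.4 CPM against 4.64 to 14.3, and Fabp4 was 49.95 CPM against 78.0 to 82.3. In KO library 4, Cdh5 was 27.8 CPM against 16.9 to 18.1, and the summed endothelial markers, which include Cdh5, were 90.8 CPM against 65.0 to 68.8. Kif23 was 6.15 CPM in KO library 1 against 4.57 to 4.78 in the other KO libraries.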

How the results depend on the processing

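Over the alternatives to the main test, the number of genes called between KO and WT in DMEM was 0 except for DESeq2 (1), the authors' deposited table (2) and the fit without KO library 1, so that leaving out 1 library gave 0 to 2. In DIAM it was 0 with only the 8 libraries of the medium, 0 with a replicate block in those 8, 1873 by DESeq2, 1884 by limma voom with library weights, 1810 in the authors' deposited table, and 178 to 1480 when 1 library was left out (299 without WT 1, 316 without WT 2, 275 without KO 1, 178 without KO 2). The interaction gave 225 by DESeq2, 234 in the authors' deposited table and 0 to 1 when 1 library was left out (1 without KO library 1 in DMEM). The exact p of Arg1 was 0.0286 to 0.257 when 1 library was left out. With Xist as a covariate, added after the data were seen, the log2 differences of Odc1 (0.016) and Slc25a37 (-0.007) changed sign; the cause was not tested. All other log2 differences of named genes recomputed kept their sign. The macrophage list median was 0.02 and the contractile one 0.107 with that covariate.

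Deviations from the group mean in same-numbered WT and KO libraries in DMEM had correlations of -0.07, -0.29, 0.14 and 0.22 over 10911 genes. These values have no common sign, and whether same-numbered WT and KO cultures were prepared together was not settled. Within a genotype, DMEM and DIAM libraries of 1 number had correlations of 0.21, -0.15, 0.31 and 0.32 in WT and 0.40, 0.03, 0.20 and 0.35 in KO. Number 2 thus lay at or below 0.03 in both genotypes, and the interaction was fitted with no term for cultures that may share a mouse. Other pairs reached like values, with 0.42 for KO library 2 in DMEM and WT library 2 in DIAM. WT library 1 in DMEM and WT library 2 in DIAM had 0.37, and other pairs ran down to -0.43 (KO library 2 in DMEM, KO library 1 in DIAM). The correlations thus do not show which cultures share a mouse. The replicate block called 0 genes in DMEM and, in all 16 libraries, 1191 in DIAM and 0 for the interaction, as without it. A covariate of Y-linked genes was planned and not run, since those genes have no row in the table used here. Genes under about 1 CPM have wide limits at this depth.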
